A study of Mus musculus with 2 samples.

Results

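A set of 8 genes, of the 26033 measured, was read across every cell class of mouse salivary gland and in the RNA outside nuclei: Smr3a, Mup4, Retnla, Cfap74, Slc15a2, Slc45a1, Apobec2 and Xlr3a. They were picked by symbol because their counts over each whole library differed greatly between the 2 libraries, 4 of them lower and 4 higher with Csf2 deleted. Those whole-library counts are therefore given as a description. The question addressed was whether each difference lay in every cell class or in 1, and in many nuclei or in few.

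Salivary glands were from mice aged 20 days, and nuclei of the whole tissue were sequenced without choosing a cell type, on the droplet-based Chromium platform that reads the 3′ end of transcripts. One library was from the genotype labelled C56BL/6 Csf2+/- and the other from C56BL/6 Csf2-/-. Csf2 encodes GM-CSF, a cytokine that acts on macrophages, and both genotypes lacked at least 1 copy of it. Each genotype had 1 library, the labels do not give how many animals or which sex stood behind each, and every difference below is a difference between 2 libraries with no replicate check and no test. Csf2 itself had 5 UMIs in the Csf2+/- and 0 in the Csf2-/- library (95% Poisson intervals 1.62 to 11.7 and 0 to 3.69).

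The Csf2+/- library held 68460 barcodes with 76002888 UMIs (unique molecular identifiers, each counting 1 captured transcript) and the Csf2-/- library held 74339 barcodes with 75630815 UMIs. Most barcodes were not nuclei. Barcodes under 1000 UMIs outside the nuclear clusters numbered 48902 in the Csf2+/- and 56263 in the Csf2-/- library, and these are called free RNA here. In them the 8 most abundant secretory genes took 36.8% of Csf2+/- and 45.5% of Csf2-/- UMIs, against 14.6% and 18.9% in nuclei. Most of the other barcodes, 10891 and 3787 with at least 1000 UMIs, had the same profile and are counted in the whole libraries only. Nuclear clusters held 8655 Csf2+/- nuclei with a median of 2807 UMIs and 14284 Csf2-/- nuclei with a median of 1952. The 8 genes were left out of the clustering, so no class was formed by them. The barcode sequences present in both libraries numbered 1367, or 1.997% and 1.84% of each.

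Of 15 nuclear classes, the 13 with at least 50 nuclei in each library were compared. Acinar-like nuclei, the secretory cells that make saliva proteins, were the most numerous with 3947 and 7213 nuclei. Fibroblast-like, luminal duct-like, myoepithelial-like, macrophage-like, ionocyte-like, endothelial-like and Schwann-like nuclei followed, each named by at least 3 markers. The other 5 classes keep their cluster number: cluster 7 was led by Dcdc2a, Casr and Unc5c, cluster 8 by Hpse2 and Mobp with 4 of 10 mucous acinar markers, cluster 9 by Tafa1 and Slc9a3 with 6 of 10 intercalated duct markers, cluster 16 by the mitotic genes Nuf2 and Knl1, and cluster 18 by Wfdc2 and Klk1b11. Cluster 18 lay nearest to free RNA, with 29.4% of its Csf2+/- and 24.8% of its Csf2-/- UMIs from the abundant secretory genes.

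Salivary acinar cells produce a large volume of a few secreted proteins, and the messenger RNA of these proteins fills the cytoplasm. When nuclei are isolated, cytoplasmic RNA spills into the suspension and is captured in every droplet, whereas transcripts still in the nucleus stay with their own cell. A gene read mainly from free RNA therefore appears at a low level in every class, and a gene read mainly from nuclei shows a level that depends on the class.

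Smr3a, Mup4 and Retnla encode small secreted proteins. Smr3a is submaxillary gland androgen regulated protein 3A, a salivary peptide precursor, Mup4 is a major urinary protein, a lipocalin that carries small volatile molecules, and Retnla is resistin-like alpha, known from alternatively activated macrophages and fat tissue. Cfap74 encodes a protein of the ciliary axoneme. Slc15a2 encodes PEPT2, a proton-coupled transporter of short peptides, and Slc45a1 encodes a proton-coupled sugar transporter. Apobec2 is the member of the APOBEC cytidine deaminase family known from muscle, and Xlr3a belongs to the X-linked lymphocyte-regulated family, a cluster of closely related genes on the X chromosome.

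To let the reader see what lies next to the starts of genes that moved together, the 100 bases before the RefSeq start of 3 lower and 2 higher genes are printed 5′ to 3′ on the strand of the gene, in build GRCm38.p6. Capitals mark TATAAA and CCAAT on either strand.
Smr3a, chr5:88002425-88002524, plus strand: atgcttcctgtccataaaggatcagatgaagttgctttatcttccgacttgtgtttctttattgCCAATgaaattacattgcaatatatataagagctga
Mup4, chr4:59960668-59960767, minus strand: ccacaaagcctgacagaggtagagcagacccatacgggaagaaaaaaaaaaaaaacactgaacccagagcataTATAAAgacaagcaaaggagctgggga
Retnla, chr16:48842509-48842608, plus strand: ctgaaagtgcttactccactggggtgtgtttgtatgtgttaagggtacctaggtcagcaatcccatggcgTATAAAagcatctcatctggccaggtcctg
Apobec2, chr17:48432729-48432828, minus strand: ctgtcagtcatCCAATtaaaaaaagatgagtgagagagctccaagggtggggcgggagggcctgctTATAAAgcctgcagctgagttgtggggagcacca
Xlr3a, chrX:73097096-73097195, minus strand: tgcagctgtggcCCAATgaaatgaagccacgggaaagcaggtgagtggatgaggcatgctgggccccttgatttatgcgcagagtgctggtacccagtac

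The RefSeq promoter table had an entry for 7 of the 8 genes, Slc45a1 being the one without. Over the whole entry, which runs from 250 bases before to 50 after a start, TATAAA was found on either strand in Mup4, Retnla and Apobec2, at 27, 30 and 34 bases before the start, and 13.6% of the 32851 promoters of the table held it. The letters TATATA, which can overlap TATAAA and do so in Mup4, were found in Smr3a at 16 bases before the start and in Mup4, against 5.67% of promoters. CCAAT was found in Smr3a, Xlr3a and Apobec2 and in 37.4% of promoters, and TGACG in Slc15a2 and in 20.8%. CACGTG was found in none of the 7 and in 7.15% of promoters. TATAAA was thus in 2 lower genes and 1 higher gene, and CCAAT in 1 lower and 2 higher genes.

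Over whole libraries, Smr3a had 768 UMIs in the Csf2+/- and 1 in the Csf2-/- library. Mup4 had 594 and 105, Retnla had 195 and 37, and Cfap74 had 304 and 91. The order was the other way for Slc15a2, with 616 and 2334 UMIs, and for Slc45a1 with 24 and 91, Apobec2 with 65 and 242, and Xlr3a with 34 and 229. None of the 8 was at 0 in a library, so on and off are a matter of degree: the lower library still held 1 Smr3a UMI and 105 Mup4 UMIs.

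Levels were scaled to the UMIs of the library as counts per 1000000 (CPM). The log2 ratio of Csf2-/- over Csf2+/- was -9.58 for Smr3a with a 95% interval from -14.9 to -7.10, -2.49 for Mup4, -2.39 for Retnla and -1.73 for Cfap74. It was 2.76 for Xlr3a (2.23 to 3.32) and between 1.90 and 1.93 for Slc15a2, Slc45a1 and Apobec2. All such intervals cover counting error only, from an exact binomial split of the UMIs. Past a log2 ratio of 2 in size, which is 4-fold, stood 4 of the 8, namely Smr3a, Mup4, Retnla and Xlr3a, where 0.23% of the 15664 genes with at least 50 UMIs passed (0.192% lower and 0.0383% higher). The genes had been picked on these values, so nothing is read from that count. The median log2 ratio of all those genes was -0.16.

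**Figure D1:**
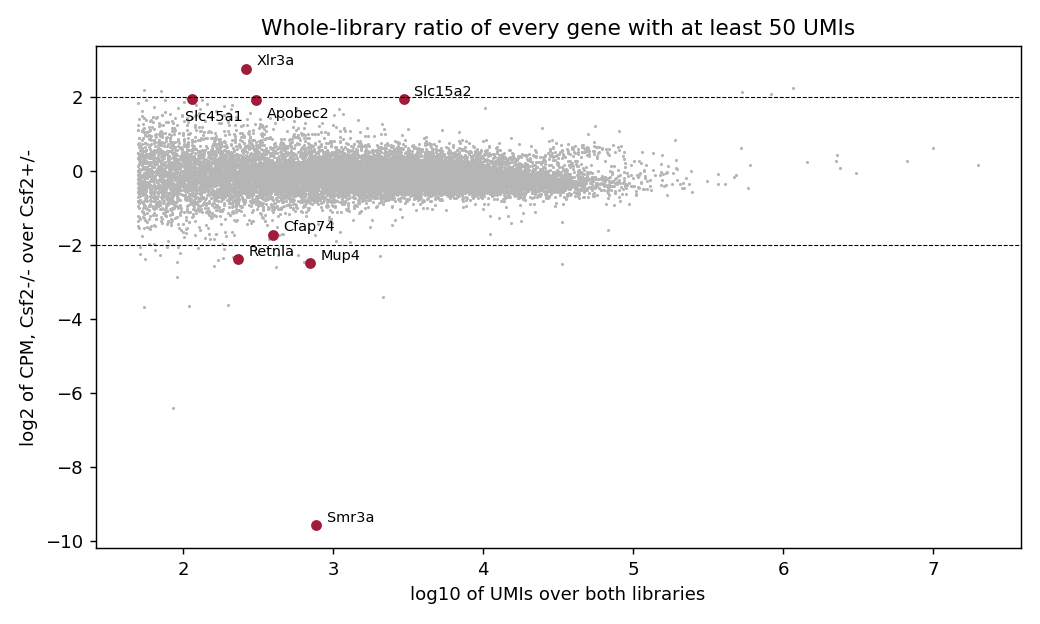
Log2 ratio of CPM, Csf2-/- over Csf2+/- (vertical axis), against the log10 of the UMIs over both libraries (horizontal axis) for the 15664 genes with at least 50 UMIs. Red points are the 8 genes, grey points all others, and dashed lines mark a log2 ratio of 2 and -2. Smr3a lies at -9.58, below every other gene, and Xlr3a at 2.76, above every other gene.

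Free RNA and nuclei gave the same direction for all 8 genes but not the same level. For Slc45a1 the free-RNA direction rested on 4 and 16 UMIs, and free-RNA barcodes with at least 1000 UMIs had 5 and 1, a log2 ratio of -0.81 (-6.37 to 2.35). In free RNA, Smr3a stood at 13.4 CPM (95% Poisson interval 12.2 to 14.6) in the Csf2+/- library. The Csf2-/- library had 0 UMIs there, 181-fold lower with a floor of 3 UMIs, and the interval of the log2 ratio ended at -7.19. In nuclei Smr3a stood at 4.69 CPM and at 0.0324 CPM, the latter being 1 UMI in 14284 nuclei. Mup4 fell from 9.88 to 1.66 CPM in free RNA and from 3.94 to 0.843 in nuclei, and Retnla from 3.30 to 0.618 and from 1.35 to 0.260. These 3 secreted-protein genes had lower levels in nuclei than in free RNA in the Csf2+/- library, with nuclear CPM at 0.350, 0.399 and 0.409 of the free-RNA CPM.

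The balance was the opposite for 3 genes. Slc45a1 had a nuclear CPM of 5.20 times its free-RNA CPM in the Csf2+/- library and 6.07 times in the Csf2-/- library, Apobec2 had 4.46 and 3.64 times, and Cfap74 had 2.74 and 2.41 times. Of all Apobec2 UMIs, 69.2% and 71.1% lay in nuclear clusters, and of Cfap74 UMIs 59.9% and 62.6%, against 16.3% of Csf2+/- Smr3a UMIs and 17.7% of Csf2+/- Mup4 UMIs. Slc15a2 lay between, with nuclear CPM 1.06 and 1.45 times the free-RNA CPM. Xlr3a was the one gene whose balance changed side, from 0.416 in the Csf2+/- library to 1.19 in the Csf2-/- library. Only 6 nuclear UMIs stood behind the first of these values, and the change was not tested.

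**Figure D2:**
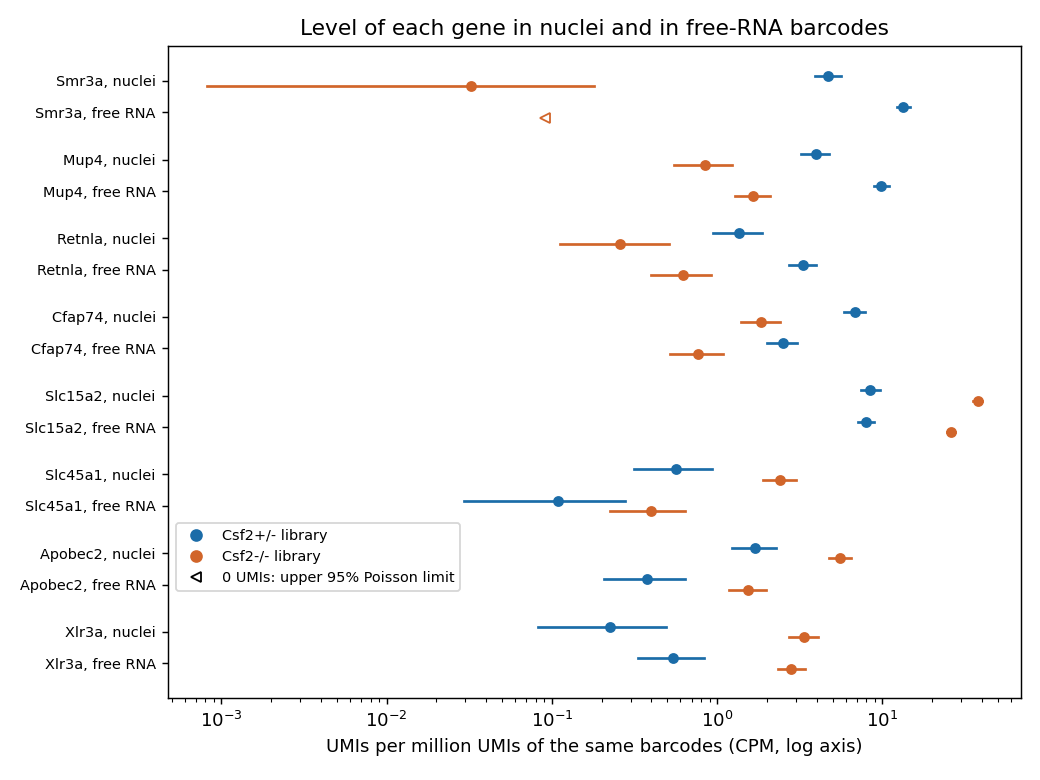
CPM of each gene in all nuclei and in free-RNA barcodes (log axis), for the Csf2+/- library in blue and the Csf2-/- library in orange, with bars for the 95% Poisson interval and an open triangle at the upper limit where 0 UMIs were found. The blue points lie right of the orange ones for Smr3a, Mup4, Retnla and Cfap74 and left of them for the other 4, in nuclei and in free RNA alike.

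Among genes with at least 50 UMIs, 5 of the 7 members tested in free RNA passed a log2 ratio of 2 in size, against 0.22% of all genes there (0.156% lower and 0.0638% higher). In nuclei 5 of the 7 tested passed, against 0.206% (0.151% and 0.0551%). In free RNA the 5 were Smr3a, Mup4, Retnla, Xlr3a and Apobec2. In nuclei they were Smr3a, Mup4, Xlr3a, Slc15a2 and Slc45a1. Both sets are parts of the libraries that chose the genes, so the counts describe where the UMIs lay.

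How many nuclear UMIs free RNA alone would give was estimated from the 8 most abundant secretory genes (Mucl2, Scgb1b27, Scgb2b27, Prol1, Scgb2b26, Smgc, Pip and Car6), taking all of their UMIs in nuclei as free RNA. Free RNA then made up at most 39.8% of nuclear UMIs in the Csf2+/- library and 41.4% in the Csf2-/- library. In cluster 18 it made up at most 80.0% and 54.5%, so levels in that cluster cannot be read as nuclear alone. On that scale the Csf2+/- nuclei had 125 Smr3a UMIs where 142 were expected, a ratio of 0.880, and Mup4 and Retnla had ratios of 1.003 and 1.03. In Csf2-/- nuclei the ratio was 1.23 for Mup4, from 26 UMIs where 21.2 were expected, and 1.01 for Retnla. Observed over expected UMIs in the Csf2+/- and Csf2-/- nuclei came to 2.66 and 3.49 for Slc15a2, 6.90 and 5.82 for Cfap74, 11.2 and 8.78 for Apobec2, and 13.1 and 14.6 for Slc45a1. For Xlr3a they came to 1.05 and 2.86.

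Over the 13 classes, Csf2-/- nuclei were below Csf2+/- nuclei in CPM in all 13 for Smr3a and Cfap74, in 10 for Mup4 and in 9 for Retnla. They were above in all 13 for Slc15a2, in 11 for Xlr3a and Apobec2, and in 10 for Slc45a1. Of the 15971 genes with at least 20 UMIs over all nuclei, 1.15% were below and 1.13% above in 13 of 13 classes, 6.61% were above in at least 11, and 16.5% were below and 11.1% above in at least 10. The share below in at least 9, the count of Retnla, was not computed and cannot be smaller than that 16.5%. Retnla had only 36 and 8 UMIs over all nuclei. Counted by gene and class, 32 pairs had at least 10 UMIs, and in 28 of these the counting interval of the log2 ratio left out 0, 11 below and 17 above. Over all genes, 17.7% of 141484 such pairs did so, 10.9% below and 6.83% above. The classes are parts of the libraries that chose the genes, so nothing is read from the excess over that share. These counts describe where the differences lay.

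**Figure D3:**
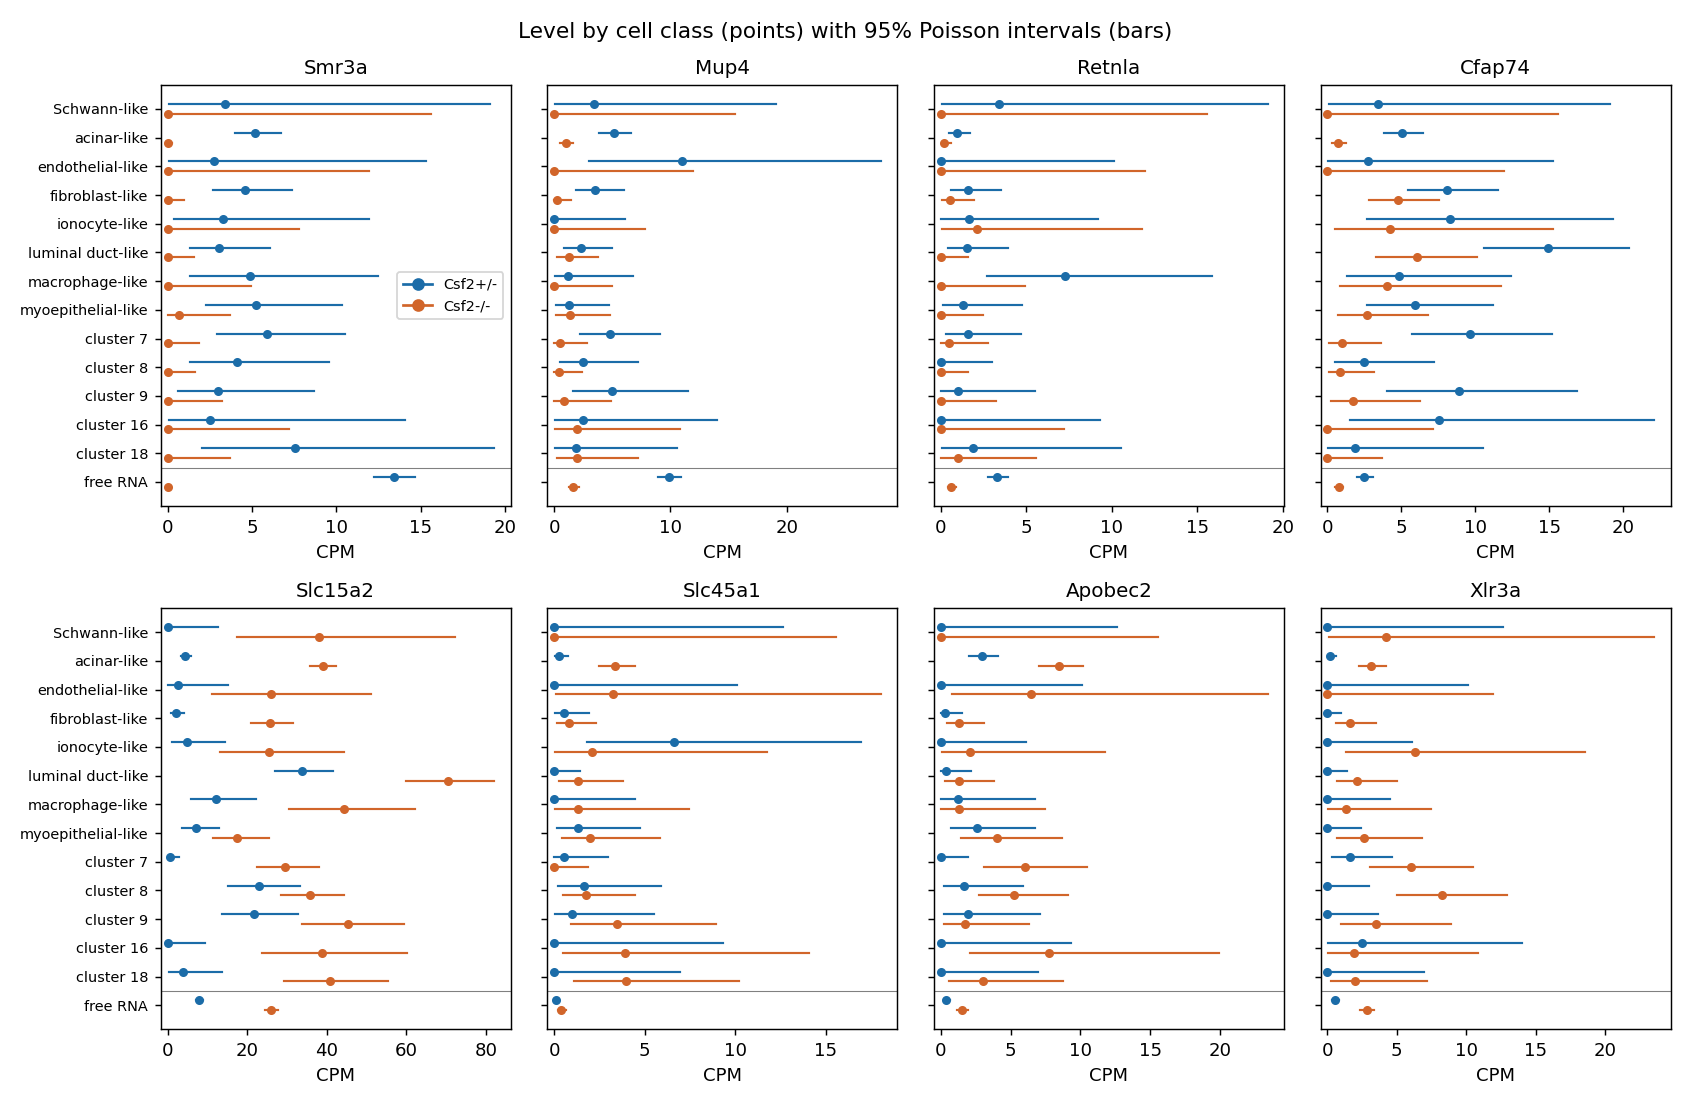
CPM of the 8 genes (1 panel each, with its own horizontal scale) in the 13 compared classes and, under the line, in free RNA, with 95% Poisson bars, Csf2+/- in blue and Csf2-/- in orange. Slc15a2 is higher in orange in all 13 classes, and Smr3a and Cfap74 are lower in all 13. The bars of every gene except Slc15a2, those of Smr3a and Cfap74 included, overlap in most classes.

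Smr3a was spread over every class of the Csf2+/- library. Its CPM there ran from 2.52 in cluster 16 to 7.55 in cluster 18, with 5.20 in acinar-like, 4.58 in fibroblast-like, 5.25 in myoepithelial-like and 3.06 in luminal duct-like nuclei. All 13 Poisson intervals overlapped, and all 13 values lay below the 13.4 CPM of free RNA. The overlap cannot show equal levels, because some classes had few UMIs, with 1 each in Schwann-like, endothelial-like and cluster 16 nuclei. In the Csf2-/- library 12 classes held 0 UMIs, and the 1 UMI lay in a myoepithelial-like nucleus. With a floor of 3 UMIs for a library at 0, acinar-like nuclei were 24.7-fold lower, from 60 UMIs to 0. Fibroblast-like nuclei were 5.76-fold lower, from 17 to 0, and cluster 7 was 3.92-fold lower, from 11 to 0. The intervals of these log2 ratios ended at -4.28, -2.07 and -1.42.

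Most Smr3a UMIs came 1 to a barcode, with 653 of the 700 Csf2+/- barcodes that held any having a single UMI. A UMI was found in 1.06% of Csf2+/- acinar-like nuclei (95% interval 0.768% to 1.44%, median 2756 UMIs), in 1.41% of fibroblast-like nuclei (median 3029 UMIs) and in 0.943% of free-RNA barcodes (median 747 UMIs). The share in acinar-like nuclei was thus not above that in fibroblast-like nuclei. A pair of acinar-like nuclei stood apart: 1 held 14 Smr3a UMIs among its 2324 UMIs, and another held 5 among 1618. Together the 5 acinar-like nuclei with most Smr3a UMIs held 38.3% of that class's count, and without them the class still went from 37 UMIs to 0. In the Csf2-/- library 0 of 7213 acinar-like nuclei had a Smr3a UMI. A floor of 3 nuclei would put that share at 0.0416%, which is not a limit of the exact interval.

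Mup4 differed most clearly in acinar-like nuclei, which had 59 UMIs in the Csf2+/- and 14 in the Csf2-/- library, a log2 ratio of -2.38 (-3.33 to -1.52). Fibroblast-like nuclei had 13 and 1, a log2 ratio of -3.72 (-9.13 to -0.99), and cluster 7 had 9 and 1. The other classes had 9 UMIs or fewer over both libraries. A Mup4 UMI was found in 1.39% of Csf2+/- acinar-like nuclei and 0.194% of Csf2-/- ones, while fibroblast-like nuclei, which are not known to make major urinary proteins, had 1.15% in the Csf2+/- library. No barcode held more than 2 Mup4 UMIs in either library, so the difference rested on many barcodes with a single UMI, 562 of 578 in the Csf2+/- library.

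Retnla was sparse, with 36 UMIs in Csf2+/- and 8 in Csf2-/- nuclei. Its highest Csf2+/- level was in macrophage-like nuclei, at 7.28 CPM (2.67 to 15.9) from 6 UMIs in 5 of 324 nuclei, and this was 5.39 times what free RNA would give. Csf2-/- macrophage-like nuclei had 0 UMIs in 391 nuclei, against a share of 1.54% (0.503% to 3.56%) in the Csf2+/- library. A floor of 3 nuclei would put the Csf2-/- share at 0.767%, which is not a limit of the exact interval. Only acinar-like nuclei passed 10 UMIs, with 11 and 3, a log2 ratio of -2.18 (-4.66 to -0.26). There the Csf2+/- level was 0.953 CPM, below the 3.30 CPM of free RNA, and 0.228% of nuclei held a UMI at a median depth of 2756 UMIs. Of all 195 Csf2+/- Retnla UMIs, 159 lay outside nuclear clusters.

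Cfap74 depended on the class and fell to different extents. Luminal duct-like nuclei had the highest level in both libraries, at 14.9 CPM (10.6 to 20.4) and 6.05 CPM (3.31 to 10.1), from 39 and 14 UMIs. Next in the Csf2+/- library came cluster 7 at 9.61, cluster 9 at 8.88, ionocyte-like at 8.27, fibroblast-like at 8.09, cluster 16 at 7.56, myoepithelial-like at 5.91, acinar-like at 5.02 and macrophage-like nuclei at 4.86 CPM. Neighbours in that order overlapped in their intervals, and luminal duct-like nuclei lay above acinar-like nuclei (3.82 to 6.49) with no overlap. The lowest were Schwann-like, endothelial-like, cluster 8 and cluster 18 nuclei, each with at most 3 UMIs.

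The Cfap74 ratio was steepest in acinar-like nuclei and cluster 7. Acinar-like nuclei went from 58 to 10 UMIs, a log2 ratio of -2.84 (-3.97 to -1.86), and cluster 7 from 18 to 2, a log2 ratio of -3.27 (-6.42 to -1.20). In luminal duct-like nuclei the log2 ratio was -1.30 (-2.30 to -0.39), and in fibroblast-like nuclei, with 30 and 18 UMIs, it was -0.76 (-1.69 to 0.13), an interval that holds 0. Myoepithelial-like nuclei with 9 and 4 UMIs also had an interval that holds 0. The intervals of fibroblast-like and acinar-like nuclei did not overlap, but the difference between these classes was not tested over replicates. A Cfap74 UMI was found in 4.53% of luminal duct-like and 1.37% of acinar-like Csf2+/- nuclei, and in 1.37% and 0.139% of Csf2-/- nuclei of these classes. No nucleus held more than 2 UMIs, so many nuclei carried the difference.

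Slc15a2 had the most UMIs of the 8 genes and was higher in the Csf2-/- library in every class. In the Csf2+/- library its level was high in luminal duct-like nuclei at 33.7 CPM (27.0 to 41.5), cluster 8 at 22.9 (15.2 to 33.2) and cluster 9 at 21.7 (13.6 to 32.9), which overlap, and 12.1 in macrophage-like nuclei. All other classes were at 7.23 CPM or lower, with cluster 7 at 0.534 from 1 UMI and Schwann-like nuclei and cluster 16 at 0 UMIs. In the Csf2-/- library luminal duct-like nuclei were again highest, at 70.4 CPM (60.0 to 82.1), followed by cluster 9 at 45.3 (33.8 to 59.4), which did not overlap. The wider intervals of macrophage-like (30.4 to 62.07), Schwann-like (17.4 to 72.2) and cluster 16 nuclei (23.8 to 60.07) did overlap that of luminal duct-like nuclei. Macrophage-like nuclei at 44.2, cluster 18 at 40.9, acinar-like nuclei at 39.04, cluster 16 at 38.9, Schwann-like nuclei at 38.0 and cluster 8 at 35.7 CPM overlapped each other in the intervals. Cluster 7 at 29.5, endothelial-like at 25.9, fibroblast-like at 25.8 and ionocyte-like nuclei at 25.4 came next, and myoepithelial-like nuclei were lowest at 17.3 CPM.

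Slc15a2 ratios were mostly steeper in classes with a low Csf2+/- level, a relation the ratio builds in because that level is its denominator. Acinar-like nuclei went from 51 to 556 UMIs, a log2 ratio of 3.14 (2.73 to 3.59), fibroblast-like nuclei from 8 to 97, 3.58 (2.54 to 4.83), and cluster 7 from 1 to 59, 5.79 (3.25 to 11.1). In luminal duct-like nuclei 88 and 163 UMIs gave 1.06 (0.68 to 1.45), in cluster 9 it was 1.06 (0.32 to 1.85) and in cluster 8, with 28 and 82 UMIs, 0.64 (0.00 to 1.31). All 11 classes with at least 10 UMIs had an interval above 0. Free RNA went from 7.98 to 26.1 CPM, a log2 ratio of 1.71 (1.52 to 1.90). With free RNA subtracted, the acinar-like log2 ratio was 4.88 from 11.02 and 389 remaining UMIs.

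Slc15a2 UMIs were spread over many nuclei. A UMI was found in 1.24% of Csf2+/- and 6.72% of Csf2-/- acinar-like nuclei, although the latter were shallower with a median of 1863 against 2756 UMIs. The share was 0.617% and 5.56% in fibroblast-like nuclei and 9.31% and 12.99% in luminal duct-like nuclei. The 5 acinar-like nuclei with most Slc15a2 UMIs held 2.70% of that class's Csf2-/- count. Thinned to 500 UMIs per barcode, 0.152% of Csf2+/- and 1.86% of Csf2-/- acinar-like nuclei held a UMI. One Csf2-/- barcode in cluster 18 held 9 Slc15a2 UMIs, but it also held 171879 UMIs in all.

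Slc45a1 was the rarest of the 8. Acinar-like nuclei carried most of its nuclear gain, with 3 UMIs in the Csf2+/- and 48 in the Csf2-/- library, a log2 ratio of 3.70 (2.06 to 6.02). The 48 UMIs lay in 46 nuclei, 0.638% of that class, against 0.0760% in the Csf2+/- library and 0.0249% of Csf2-/- free-RNA barcodes. No other class had 10 UMIs. Ionocyte-like nuclei had 4 and 1 UMIs and cluster 7 had 1 and 0, the 2 classes in which the Csf2-/- value was lower, so with these counts no direction can be given outside acinar-like nuclei.

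Apobec2 had its highest level in acinar-like nuclei in both libraries, at 2.95 CPM (2.04 to 4.12) from 34 UMIs and 8.495 CPM (7.05 to 10.2) from 121 UMIs, a log2 ratio of 1.53 (0.97 to 2.12). Cluster 7 went from 0 to 12 UMIs, 3.74-fold higher with a floor of 3 UMIs, and the interval of its log2 ratio began at 1.38. Cluster 8 with 2 and 12 UMIs and myoepithelial-like nuclei with 4 and 6 had intervals that hold 0, and cluster 9 had 2 in each. The 121 Csf2-/- UMIs lay in 111 acinar-like nuclei, 1.54% of the class, and the 34 Csf2+/- UMIs in 33 nuclei, 0.836%. Fibroblast-like nuclei had 1 and 5 UMIs, and their Csf2-/- level of 1.33 CPM (0.431 to 3.10), with a UMI in 0.305% of nuclei, did not overlap the acinar-like level. Neither did luminal duct-like nuclei (0.267 to 3.79) and cluster 9 (0.211 to 6.29). All other classes overlapped it, among them cluster 7 (3.10 to 10.5), cluster 8 (2.70 to 9.14) and myoepithelial-like nuclei (1.47 to 8.71). In the Csf2+/- library myoepithelial-like nuclei stood at 2.63 CPM (0.716 to 6.73), close to acinar-like nuclei.

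Xlr3a had 6 nuclear UMIs in the Csf2+/- and 103 in the Csf2-/- library. Acinar-like nuclei went from 2 to 45, a log2 ratio of 4.19 (2.25 to 7.28), and cluster 7 from 3 to 12, a log2 ratio of 1.90 (0.01 to 4.37). Cluster 8 went from 0 to 19, 3.37-fold higher with a floor of 3 UMIs, and the interval of its log2 ratio began at 1.31. Without nuclei over 10000 UMIs, an alternative chosen after seeing the data, the interval of cluster 7 ran from -0.0027 to 4.35 and held 0. In 10 of 13 classes the Csf2+/- library held 0 UMIs, and in 12 of 13 the Csf2-/- library held at least 1. The highest Csf2-/- level was 8.28 CPM (4.99 to 12.9) in cluster 8, above the 2.82 CPM of free RNA (2.33 to 3.39) and above the 3.16 CPM (2.30 to 4.23) of acinar-like nuclei. It did not stand apart from every class: ionocyte-like nuclei at 6.34 CPM (1.31 to 18.5) and cluster 7 at 5.997 CPM (3.10 to 10.5), among others, overlapped it. The 103 UMIs lay in 100 nuclei, and no nucleus held more than 2.

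In acinar-like nuclei, where counts were deepest, 6 of the 7 genes with at least 20 UMIs passed a log2 ratio of 2 in size, 3 lower and 3 higher, against 0.346% of the genes tested in that class (0.103% lower and 0.243% higher). Apobec2 was the exception, and Retnla had too few UMIs. In luminal duct-like nuclei 0 of 2 did, against 0.182%, and in fibroblast-like nuclei 1 of 2, against 0.335%. These classes too are parts of the libraries that chose the genes, so the counts are a description and nothing is read from them.

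The acinar-like nuclei of the 2 libraries lay mostly in different clusters when clustered more finely, a split read after seeing the data. At Leiden resolution 2.0 one unnamed cluster held 842 Csf2+/- and 6402 Csf2-/- acinar-like nuclei and another 2975 and 532. Within the first, Slc15a2 had 8 and 470 UMIs, a log2 ratio of 2.9995 (2.01 to 4.22), Cfap74 13 and 6, -3.99 (-5.67 to -2.50), and Mup4 10 and 11, -2.74 (-4.11 to -1.35). Within the second, Slc15a2 had 42 and 74, a log2 ratio of 3.29 (2.73 to 3.88), Xlr3a 2 and 9, 4.65 (2.37 to 7.90), and Mup4 45 and 1, -3.02 (-8.35 to -0.46). Smr3a went from 14 UMIs to 0 in the first and from 46 to 0 in the second. Xlr3a had 0 and 34 UMIs in the first, with an interval from 0.25 upwards. The intervals of Slc15a2, Mup4, Smr3a and Xlr3a thus left out 0 within both clusters. For Cfap74 in the second, with 45 and 3 UMIs, the interval from -3.76 to 0.21 holds 0, and so does that of Apobec2 with 28 and 10, from -0.22 to 2.08. Slc45a1 had 1 and 43 UMIs in the first and 2 and 2 in the second, both with intervals that hold 0. Another split, from clustering barcodes with at least 1000 UMIs, gave a cluster with 344 and 4557 acinar-like nuclei. There the intervals of Mup4 (-4.26 to 0.35) and Xlr3a (from -0.84 upwards) held 0.

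Counting at near-identical copies limits 3 of the genes. Of the distinct 50-base words in the last 500 bases of GENCODE transcripts (build GRCm38), 63.1% of those of Xlr3a also occurred in another gene, 49.4% in Xlr3b and 37.2% in Xlr3c. For Smr3a it was 41.8%, all in Gm28434, a gene model that overlaps it on the same strand and had 0 UMIs in both libraries. For Mup4 it was 16.4%, in Mup5. Slc45a1, Apobec2 and Retnla shared 0 words, Cfap74 3.33% and Slc15a2 0.929%. How reads that match several genes were counted is not given in the sources used here.

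No tested relative of these genes passed the 4-fold mark. Mup5 had 7921 UMIs in the Csf2+/- and 8133 in the Csf2-/- library and Mup6 had 1012 and 1185, against 594 and 105 for Mup4. Beside Smr3a, Prol1, a proline-rich saliva protein gene, had 1547176 and 1490712. Of 4 other Slc15 genes the best measured, Slc15a4, had 643 and 541 UMIs, and Slc45a3 and Slc45a4 had 1174 and 1016 and 1793 and 1747. Apobec1 had 732 and 648 UMIs and Apobec3 had 2113 and 2118.

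Some relatives moved the same way as their member and some the other way. Against the rise of Slc15a2, Slc15a1 had 17 and 5 UMIs, a log2 ratio of -1.76 (-3.55 to -0.26). Slc15a3 had 142 and 94, -0.59 (-0.98 to -0.20), and Slc15a4 was at -0.24 (-0.41 to -0.07). Slc15a5, with 13 and 14 UMIs, had an interval that holds 0. Beside Smr3a, Smr2 had 130 and 87 UMIs, a log2 ratio of -0.57 (-0.98 to -0.17), lower like Smr3a. Mucl1, which was not among the genes measured within 1000 kb of Smr3a, had 915 and 570, a log2 ratio of -0.68 (-0.83 to -0.52). Odam, with 34 and 12 UMIs, had a log2 ratio of -1.50 (-2.58 to -0.51). Apobec4 was higher like Apobec2, with 10 and 23 UMIs and a log2 ratio of 1.21 (0.08 to 2.44). Xlr3b had 28 and 59 UMIs, a log2 ratio of 1.08 (0.41 to 1.79), and Xlr4b 22 and 43, a log2 ratio of 0.97 (0.20 to 1.79), while Xlr had 63 and 40. Xlr3b is the gene with which Xlr3a shares most transcript-end words, and how much of either count belongs to the other was not tested. Retn, the resistin gene, had 10 and 1 UMIs and Retnlg 6 and 2, both lower like Retnla but with few counts. Of 11 tested ciliary genes 0 passed the 4-fold mark, with 5 above and 6 below 0 and a median log2 ratio of -0.04, against -1.73 for Cfap74.

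Genes beside the members on the chromosome were compared through the RefSeq gene order, in which 84.2% of the symbols were found. Within 1000 kb of the 8 starts, 153 genes were measured, and 3 of them, 1.96%, passed a log2 ratio of 1 in size, against 3.10% of all 15664 genes. These were Stxbp5l near Slc15a2 at -1.21, Pgc near Apobec2 at -1.30 and Xlr3b near Xlr3a at 1.08. The nearest measured neighbours of Slc15a2, Ildr1 and Eaf2, stood at -0.12 and -0.10, and those of Cfap74, Prkcz and Tmem52, at 0.32 and 0.37. Slc45a1, Mup4 and Cfap74 lie on chromosome 4 and Slc15a2 and Retnla on chromosome 16, in opposite directions on each.

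**Figure D4:**
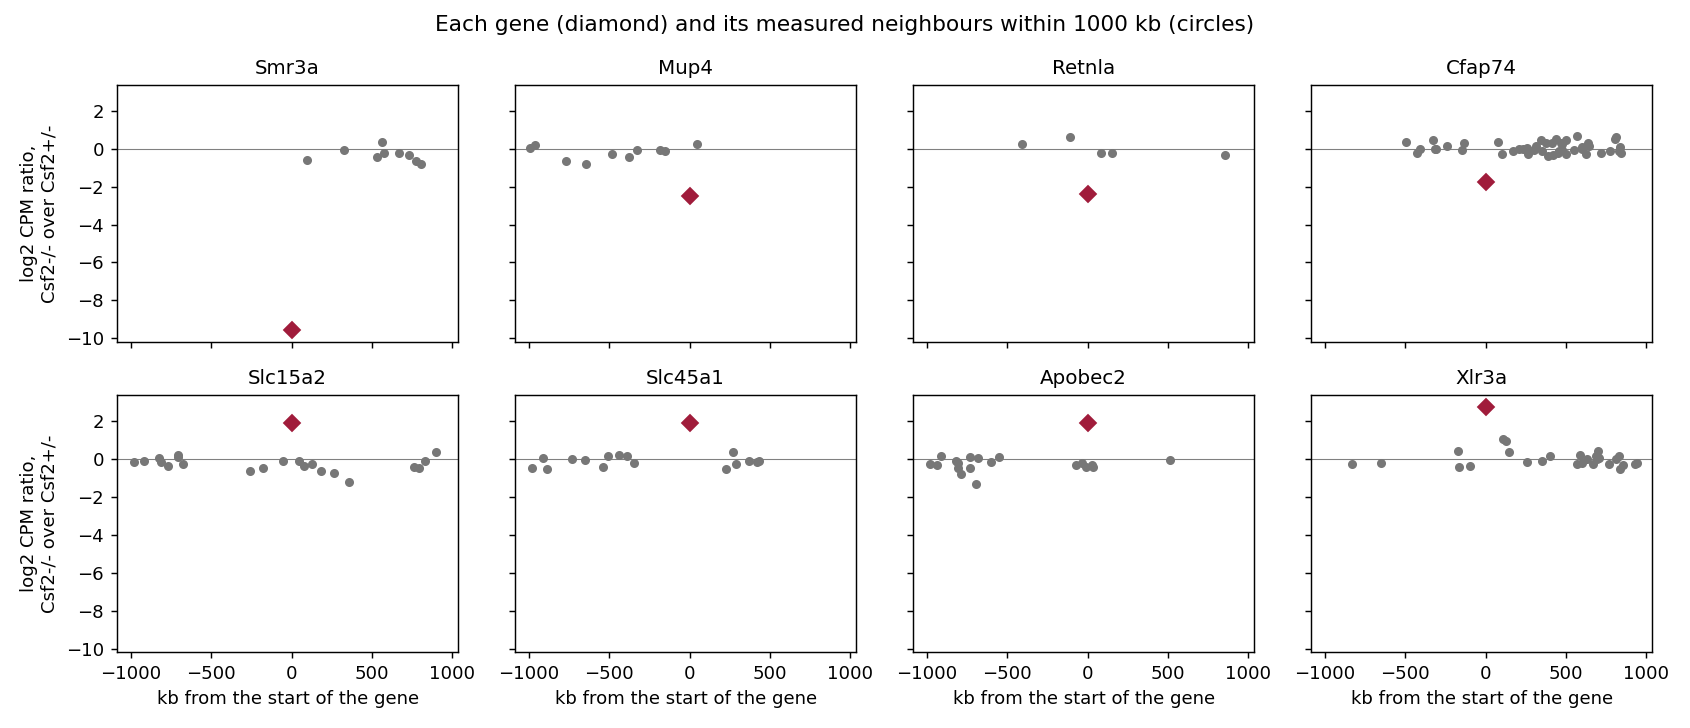
Log2 ratio of CPM, Csf2-/- over Csf2+/- (vertical axis), of each of the 8 genes (red diamond) and of the measured genes that start within 1000 kb of it (grey circles), against the distance in kb (horizontal axis). The 153 neighbours lie between -1.30 and 1.08 while the 8 genes lie at -1.73 or lower or at 1.90 or higher.

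Marker lists of tissues and cell types in which these genes are known were read beside them. Skeletal muscle markers, for Apobec2, had 958 and 1190 UMIs in sum, a median log2 ratio of 0.33 over 6 tested genes, with Ckm at 459 and 504. Adipocyte markers, for Retnla, had 3855 and 3433 in sum and a median of -0.72 over 5. Markers of alternatively activated macrophages had a median of -0.30 over 7, with 2 above and 5 below 0. Androgen-responsive salivary genes, beside Smr3a, had a median of 0.08 over 17 tested, with 0 past the 4-fold mark, and parotid genes a median of -0.12 over 6, with 3 above and 3 below 0. Among the parotid genes Prp2 had 843 and 269 UMIs, a log2 ratio of -1.64, Amy1 1616 and 839, -0.94, and Bpifa2 11280 and 19071, 0.76, while Prb1 had 18 and 1. Lacrimal genes had a median of -0.45 over 4, and 1 of these, Scgb2b20 with 63 and 15 UMIs, passed the 4-fold mark downwards at -2.06, while Scgb1b3 had 277 and 143, -0.95. In the 4 Y-linked genes measured, Ddx3y had 1 and 3 UMIs and Uty, Kdm5d and Eif2s3y had 0 in both libraries.

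Erythroid genes moved with the lower members. Of 5 tested, 4 passed the 4-fold mark downwards: Hbb-bs with 1706 and 346 UMIs, Hba-a1 with 545 and 99, Hba-a2 with 484 and 100, and Hbb-bt with 360 and 59. The whole list summed to 43.8 and 12.2 CPM, Alas2 had 228 and 314 UMIs, and Slc4a1 was at 0 in both libraries. Of 7 tested neuronal genes, 2 passed downwards, Elavl2 with 180 and 36 and Elavl4 with 137 and 23 UMIs. The part of blood or nerve RNA in the differences of the 8 genes was not tested.

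Likeness of pattern was measured as Pearson's r of log2(CPM + 1) over 26 points, 13 classes in 2 libraries, among 14528 genes, and is a description because the points share libraries. The genes most like Smr3a were 5_8S_rRNA (0.916), a ribosomal RNA gene with 28642 and 5010 UMIs, and Hba-a1 (0.846). For Slc15a2 they were Pde6a (0.834) and Gpr22 (0.797), for Cfap74 Slc25a36 (0.806) and Kdm6a (0.798), and for Apobec2 Star (0.778) and Gng3 (0.764), which had 169 and 491 UMIs. Xlr3a was most like Kctd21 (0.768) and Tmed1 (0.766), Retnla most like Klre1 (0.711) and Zfp831 (0.637), and Slc45a1 most like Poldip3 (0.689) and Rabep2 (0.647). Between members, the highest values were 0.621 for Smr3a and Mup4, 0.613 for Slc15a2 and Apobec2, and 0.612 for Smr3a and Cfap74. Other pairs of the same direction were lower, such as Mup4 and Retnla at 0.145, and Smr3a and Xlr3a had -0.746. The members were picked for differing between the libraries that give these points. Genes that differ the same way are then alike partly by construction, so nothing is read from these values.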

How the data were processed

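The authors deposited raw UMI counts per gene and barcode. The submitters' processing notes name Cell Ranger 7.0.0 and build GRCm39. The kit was the 10x Chromium 3′ version 2, per the labels' protocols. The gene annotation, intron counting and the selection of barcodes are not given in the sources used here. No barcode had under 430 UMIs. Every column belonged to 1 library, and both libraries were used. The reference tables are of GRCm38, so they gave gene names, neighbours, transcript ends and promoters only.

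Barcodes with at least 500 UMIs, 300 genes and under 5% mitochondrial UMIs (67940 Csf2+/- and 55517 Csf2-/-) were clustered without batch correction on 2000 variable genes, 30 components, 20 neighbours and Leiden resolution 1 (igraph 0.11.9, Scanpy 1.11.5, Python 3.11.15). Clusters in which the 8 leading secretory genes took at least 0.75 times their share in barcodes under 1000 UMIs were free RNA. A nuclear cluster was named where at least 3 markers of 1 list were at least 2-fold above other nuclei and no other list led its top genes. No doublets were called or removed. UMIs were summed per class and library and scaled to CPM. Ratios have exact conditional binomial, CPM Poisson and shares exact binomial 95% intervals, which cover counting error only. A library at 0 was bounded with a floor of 3 UMIs. Such a bound takes the count of the other library as exact, so it is not a limit of the 95% interval. A share at 0 was given with a floor of 3 nuclei, which is not a limit of its exact interval either. With 1 library per genotype there was no test. The steps were tested on simulated data.

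Genes other than the 8 were named as follows: up to 4 of each companion list by UMIs, neighbours past a log2 ratio of 1, and the 2 most alike; nearest neighbours, Retn, Retnlg, Xlr, Xlr3c, Prp2, Prb1, Alas2, Slc4a1 and Gm28434 were chosen after their values were seen. The genes most alike in pattern to Mup4 are not reported here. The members and lists were chosen with earlier results of these data known. The alternatives covered scaling, barcode sets, clustering, thinning, free-RNA subtraction and leaving out the leading or largest barcodes, the last with 4 others chosen after seeing the data, among them the finer acinar clusters.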

Additional observations from a re-analysis of the deposited data

How the results depend on the processing

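No whole-library or free-RNA ratio changed direction under the alternatives run. Over whole libraries, Slc15a2 (log2 ratio 1.93) had 2.10 with CPM outside the 100 most abundant genes, 2.09 centred on the median of all genes, 2.16 in nuclei alone, 2.15 in barcodes with at least 1000 UMIs and 1.71 in barcodes under 1000 UMIs, and Xlr3a (2.76) had 3.89 in nuclei alone. Smr3a ranged from -9.56 to -7.18, Mup4 from -2.56 to -2.22, Retnla from -2.66 to -2.22, Cfap74 from -1.89 to -1.56, Slc45a1 from 1.88 to 2.18 and Apobec2 from 1.72 to 2.10 over 8 alternatives. In free RNA, Slc45a1 (1.87, from 4 and 16 UMIs) had 0.95 over all barcodes of the free-RNA clusters and 2.03 over all barcodes under 1000 UMIs. The genes past the 4-fold mark, 36 in all, were 6 at a log2 ratio of 3 and 16 with at least 200 UMIs. Thinned to 500 UMIs, the percent of Csf2+/- and of Csf2-/- nuclei with a UMI was 0.427 and 1.88 for Slc15a2, 0 and 0.105 for Slc45a1, 0.254 and 0 for Smr3a, 0 and 0.133 for Xlr3a, 0.127 and 0.301 for Apobec2, 0.220 and 0.0420 for Mup4, 0.370 and 0.0770 for Cfap74, and 0.0693 and 0.0210 for Retnla, lower than unthinned because fewer UMIs were read. Of 178 class ratios under alternatives, 163 stayed within their counting error and 13 moved in the same direction. Slc15a2 in acinar-like nuclei (3.14) had 2.40 by a marker rule per barcode, 4.88 with free RNA subtracted and 4.60 in cluster 2 of the clustering with at least 1000 UMIs, which held 344 and 4557 acinar-like nuclei. Smr3a there (bound of -4.62) had -3.25 among at least 1000 UMIs, -1.46 in cluster 10 at resolution 2.0 and -3.93 without the 5 nuclei with most UMIs, which also took its fibroblast-like bound from -2.53 to -1.90, Slc15a2 in fibroblast-like nuclei from 3.58 to 5.42 and in cluster 16 from 2.36 to 1.90. Cfap74 in acinar-like nuclei (-2.84) had -1.43 and -3.99 in clusters 10 and 6 at resolution 2.0, and Xlr3a (4.19) a bound of 0.63 in cluster 6. In cluster 2, Slc45a1 with 0 and 19 UMIs and Xlr3a with 0 and 27 had bounds of -0.95 and -0.44, which give no direction. The intervals of Mup4 (-4.26 to 0.35) and Apobec2 (-0.31 to 4.67) held 0 there too. Of the 5 genes with at least 10 UMIs in cluster 2, only 1, Slc15a2, had an interval that left out 0. Free-RNA subtraction left few UMIs for some genes and then turned the sign: Mup4 in all nuclei went from -2.22 to 3.86 (104.7 of 105 Csf2+/- UMIs expected), Retnla in cluster 7 from -1.68 to 0.77 and Apobec2 in macrophage-like nuclei from 0.14 to -0.58. Without nuclei over 10000 UMIs, 27 of 32 class intervals left out 0, against 28. Classes given by number could not be matched under other clusterings and have no values there. No paired analysis was possible because each genotype had 1 library.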
